A study of Mus musculus with 32 samples.

Results

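The comparison described here is that of the diets in mice under the same drug: liver RNA 2 weeks after partial hepatectomy (PH) in M+Fc-GLP-1 mice, fed a methionine and choline deficient (MCD) diet, against C+Fc-GLP-1 mice, fed standard chow. It rests on 8 of the 32 arrays of the study, 4 per group, taken by their labels. All 8 came from C57/BL6 males that had been on their diet for 3 weeks and on the drug for the last 2 weeks when 70% of the liver was removed, and that then stayed on both. The labels call the samples biological replicates, 1 mouse each, and only mice that survived PH could be sampled. The drug is named as in the study, a GLP-1 receptor agonist fused to an Fc fragment. Part of the labels instead names an agonist acting on both GLP1R and GCGR, given at 4.4 mg/kg/day, and the arrays cannot tell these apart. The other groups were C and MCD mice without drug after PH, and all 4 groups at the time of PH.

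The MCD diet withholds methionine, the main source of methyl groups, and choline, which hepatocytes need to make phosphatidylcholine and to export fat as very low density lipoprotein. It is used as a model of fatty liver with inflammation, and mice on it lose weight. Liver genes answer to such a diet through several regulators: PPAR alpha turns on fat oxidation, SREBP factors turn on fat and cholesterol synthesis, ATF4 answers to amino acid shortage, and the pulses of growth hormone acting through STAT5 keep the liver of males different from that of females.

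RNA was measured on 1-colour 60-base oligonucleotide arrays. Values below are log2 signals relative to the 75th percentile of the array, so 0 is the 75th percentile, and a difference of 1 is a doubling. Differences are M+Fc-GLP-1 minus C+Fc-GLP-1, with ± the standard error of the limma fit, n = 4 per group, and p-values adjusted over all 21071 genes tested. The share of probes well above background was 46.6% to 55.2% in M+Fc-GLP-1 and 50.6% to 62.1% in C+Fc-GLP-1 mice, and the number of arrays limits the precision. All 8 arrays lay on 1 slide, the chow arrays in row 1 and the MCD arrays in row 2, so diet and row cannot be told apart. M+Fc-GLP-1 replicate 4 and C+Fc-GLP-1 replicate 1 stood apart from the other 6 arrays on the second principal component, which held 18.5% of the variance against 41.5% for the first, where the diets separated. The tissue label was borne out by its markers. The log2 of the mean linear signal of the 12 hepatocyte genes tested was 8.84 to 9.56 on the M+Fc-GLP-1 and 8.92 to 9.53 on the C+Fc-GLP-1 arrays. Such a list level is set mostly by the brightest members and does not give the level of each gene. Of these 12 only Tat, tyrosine aminotransferase, passed the threshold (0.86 ± 0.29, adjusted p = 0.044), and the median over the 12 was 0.01. The call on Tat was lost without C+Fc-GLP-1 replicate 1 or 3 or M+Fc-GLP-1 replicate 1, 2 or 4 (adjusted p up to 0.19).

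The diets differed in 2702 of 21071 genes, 12.8%, with 1307 higher (6.2%) and 1395 lower (6.62%) in M+Fc-GLP-1 mice, while the median difference over all tested genes was -0.01. Without the pair of arrays that stood apart the count was 2024, 1000 higher and 1024 lower. The groups did not overlap in 3498 genes, 16.6% of those tested, and 2149 of these passed the threshold. Of the called genes, 2598 had probes well above background on at least 1 array of each group. Among the others, 42 were well above background on no C+Fc-GLP-1 array, 60 on no M+Fc-GLP-1 array, and the rest on no array of either group. At the time of PH the same contrast, on arrays of another slide, passed the threshold in 2183 genes, 1127 higher (5.35%) and 1056 lower (5.01%), or 615 and 1899 with arrays centred on the median. The direction was shared in 1062 genes called at both times, 39.3% of the calls after PH and 48.6% of those before, and was opposite in 8. Counts of gene lists after PH, given below, are to be read beside the 6.2% of all genes higher and 6.62% lower. Those at the time of PH are to be read beside 5.35% higher and 5.01% lower.

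The largest rises and falls included many genes that differ between the livers of males and females. Sult1e1, the estrogen sulfotransferase, had signals of 6.05, 5.65, 6.35 and 5.36 in M+Fc-GLP-1 and -2.48, -2.62, -2.15 and -2.74 in C+Fc-GLP-1 mice, a difference of 8.35 ± 0.94, adjusted p = 4.8e-07. Cyp3a44, a cytochrome of female liver, read 4.86, 5.53, 4.90 and 2.01 against -4.69, -2.47, -3.09 and -3.41 (7.74 ± 0.58, adjusted p = 5.6e-10). In both genes the lowest MCD value lay above the highest chow value. The 10 largest rises and falls were taken only from genes whose groups did not overlap, so this separation adds no evidence. In the other direction, Hsd3b5, a steroid dehydrogenase of male liver, read -0.22, -0.53, -1.16 and -4.17 in M+Fc-GLP-1 and 4.64, 6.58, 6.94 and 6.83 in C+Fc-GLP-1 mice (-7.77 ± 1.18, adjusted p = 3.8e-05). Slco1a1, an organic anion transporter of the hepatocyte, read -2.32, -3.27, -4.10 and -4.0 against 2.84, 4.19, 4.62 and 3.79 (-7.28 ± 1.18, adjusted p = 8.7e-05). Serpina4-ps1, a pseudogene of the serpin family, had the largest fall (-9.70 ± 1.35, adjusted p = 1.1e-05), with its probe above background on 1 of 4 MCD arrays. Elovl3, a fatty acid elongase, fell by more than its spread as well (-6.44 ± 1.15, adjusted p = 2.8e-04), although M+Fc-GLP-1 replicate values ran from -4.01 to 0.15.

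**Figure D1:**
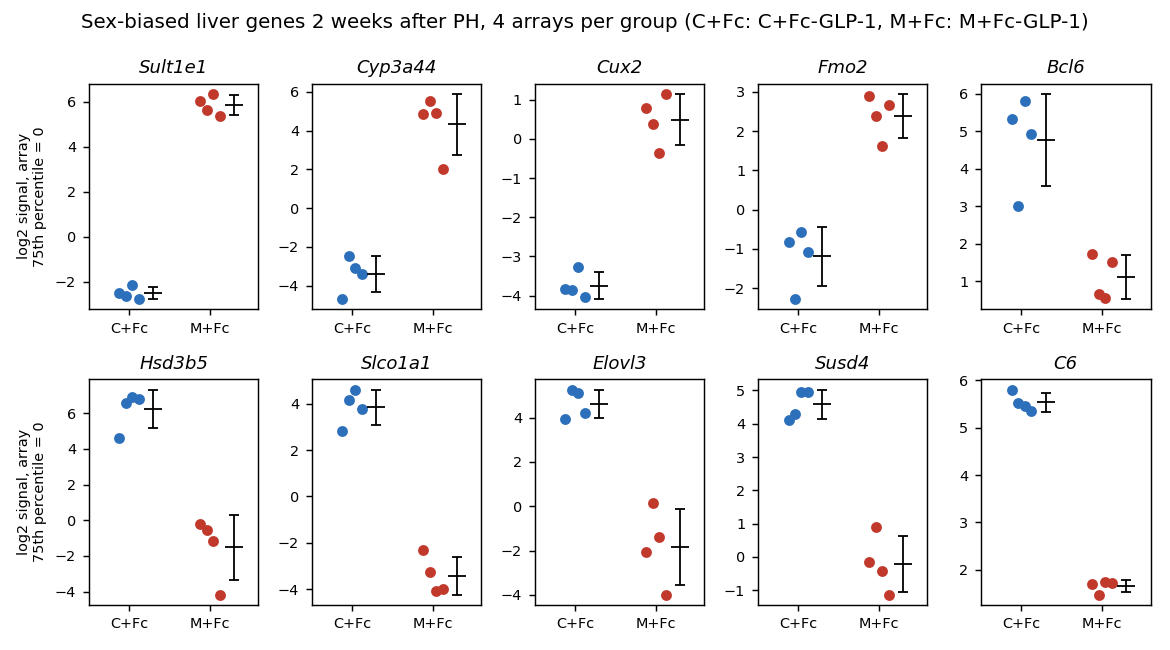
Log2 signal (y axis, array 75th percentile = 0, each panel with its own scale) of 10 sex-biased liver genes on each array of the C+Fc-GLP-1 (blue) and M+Fc-GLP-1 (red) groups after PH, with the mean and SD of the 4 arrays in black. The upper row starts with 4 genes higher in female liver, all raised in M+Fc-GLP-1 mice, and the other 6 are lower there. No panel shows an overlap of the groups, which the rule for naming the largest rises and falls required.

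The lists of sex-biased genes moved in opposite directions. Of 24 tested genes known to be higher in female liver, 16 rose and none fell, with a median difference of 2.45, beside 6.2% of all genes higher. Beyond Sult1e1 and Cyp3a44 they included the cytochromes Cyp2b13 (5.50 ± 0.33, adjusted p = 6.3e-12), Cyp2b9 (4.22, adjusted p = 3.8e-04) and Cyp2a4 (2.46), the sulfotransferase Sult2a2 (4.93), the flavin monooxygenase Fmo2 (3.58, adjusted p = 4.9e-06) and Cux2, a repressor found in female and not in male liver. Cux2 read 0.78, 0.38, -0.37 and 1.15 against -3.83, -3.86, -3.26 and -4.04, a difference of 4.23 ± 0.47, adjusted p = 4.5e-07. The probe of Cyp2b13 was above background on 1 of 4 chow arrays. Cyp2a22, another cytochrome and no member of the list, was among the 10 largest rises too (4.90, adjusted p = 2.3e-07). Probes for the Cyp2a, Cyp2b and Cyp3a families can also take up RNA of close copies, so which member of a family moved is uncertain.

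Of 23 tested genes known to be higher in male liver, 15 fell and 1 rose, with a median of -2.42. The fallers held, besides Hsd3b5, Slco1a1 and Elovl3, the complement regulator Susd4 (-4.78 ± 0.54, adjusted p = 5.5e-07), the fatty acid hydroxylase Cyp4a12a (-4.15 ± 0.83, adjusted p = 9.3e-04), the oxysterol hydroxylase Cyp7b1 (-3.67 ± 0.66, adjusted p = 2.9e-04) and the terminal complement component C6. C6 was among the tightest: its signal was 1.70, 1.47, 1.74 and 1.71 in M+Fc-GLP-1 and 5.81, 5.53, 5.46 and 5.35 in C+Fc-GLP-1 mice (-3.88 ± 0.33, adjusted p = 5.6e-09). Mup1, Mup3 and Mup21, of the multi-copy major urinary proteins, differed by -2.62, -2.92 and -3.63, with the same doubt about single copies. The 1 male-biased gene that rose was Cyp2u1 (1.08, adjusted p = 0.025). The direction was already there at the time of PH, where 15 of the 24 female-biased genes were higher, 12 of the 23 male-biased genes were lower, and none moved the other way. In mice without drug after PH, whose diets lay on different slides, the medians of the female-biased and male-biased lists were 1.89 and -1.88.

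Genes that carry the growth hormone signal moved less uniformly, 2 higher and 5 lower of 23 tested, median -0.40. Bcl6, a male-biased repressor that growth hormone holds down, had the largest fall: 1.72, 0.67, 0.56 and 1.52 in M+Fc-GLP-1 against 5.32, 3.01, 5.82 and 4.92 in C+Fc-GLP-1 mice (-3.65 ± 0.67, adjusted p = 3.8e-04). The growth hormone receptor Ghr differed by -1.76 ± 0.41, adjusted p = 0.0040, the leukemia inhibitory factor receptor Lifr by -2.36 ± 0.46, adjusted p = 7.4e-04, the transcription factor Stat5b by -0.60 ± 0.20, adjusted p = 0.049 and the hormone Igf1 by -1.01 ± 0.24, adjusted p = 0.0043. The feedback inhibitor Socs2 did not pass the threshold (1.5 ± 0.52, adjusted p = 0.053). The call on Stat5b was lost without C+Fc-GLP-1 replicate 1, 2, 3 or 4 or M+Fc-GLP-1 replicate 1, 2 or 4 (adjusted p up to 0.16). The probes of Lifr ran from -2.36 to -0.46 and those of Igf1 from -1.01 to 0.72, and both lost the call when the probes of a gene were averaged. The rises were H19, an imprinted non-coding RNA of fetal liver (5.61 ± 0.96, adjusted p = 1.7e-04), and the binding protein Igfbp2 (1.06).

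Genes of the circadian clock also differed. Of 18 tested, 9 rose and 2 fell, with a median of 1.43, beside 6.2% of all genes higher and 6.62% lower. The activator Arntl (BMAL1) was lower, at -4.10, -1.36, 0.54 and -2.08 in M+Fc-GLP-1 against 1.72, 2.64, 2.23 and 2.60 in C+Fc-GLP-1 mice (-4.05 ± 0.64, adjusted p = 7.1e-05), with its probe above background on 3 of 4 MCD arrays. Its partner Clock lay at 0.48, 0.68, 0.71 and -0.06 against 0.62, 1.45, 1.42 and 0.81 and did not pass (-0.62 ± 0.27, adjusted p = 0.13). The output repressor Nfil3 was lower (-2.18 ± 0.39, adjusted p = 2.7e-04). The output activator Dbp, which the Arntl and Clock pair switches on, was higher, at 6.18, 5.75, 6.26 and 5.19 against 2.01, 1.13, 1.37 and 2.14 (4.18 ± 0.68, adjusted p = 8.8e-05), and its relatives Tef (2.35) and Hlf (1.92, adjusted p = 3.4e-05) rose with it.

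Of the negative limb, Per1 read 4.96, 4.98, 5.35 and 5.18 against 1.18, 3.1, 0.98 and 0.83 (3.60 ± 0.56, adjusted p = 6.0e-05), with C+Fc-GLP-1 replicate 2 well above the other chow arrays and still below all MCD arrays. Its other probe differed by 0.89. Per3 rose at least 5.88-fold (adjusted p = 2.3e-05) and Ciart, a repressor of the Arntl and Clock pair, at least 39.0-fold (adjusted p = 8.2e-09). These bounds set the mean of the MCD arrays against the background of the chow arrays, none of which measured the probe. Cry2 (1.32), Nr1d2 (1.97) and the deubiquitinase Usp2 (4.28, adjusted p = 3.8e-05) were also higher, while Per2 (1.34, adjusted p = 0.060) and Nr1d1 (0.76, adjusted p = 0.33) did not pass. At the time of PH 11 of the 18 were higher and 3 lower. The labels give no time of day for the collection of either group.

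**Figure D2:**
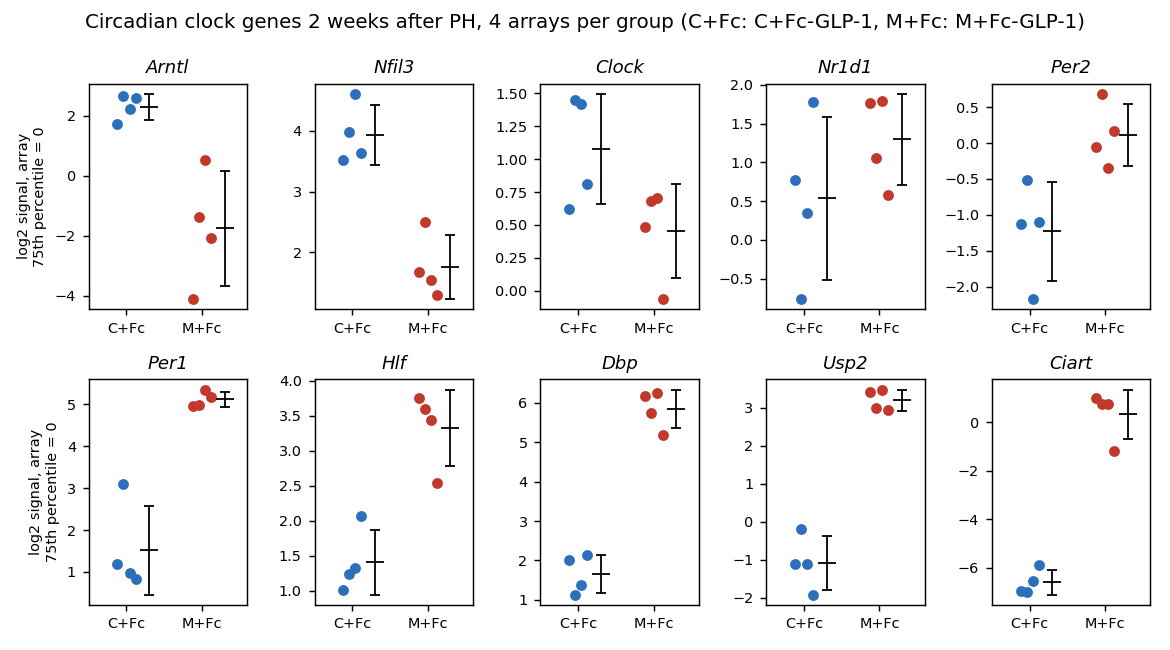
Log2 signal (y axis, array 75th percentile = 0, each panel with its own scale) of 10 clock genes on each array of the C+Fc-GLP-1 (blue) and M+Fc-GLP-1 (red) groups after PH, with mean and SD in black. Arntl and Nfil3 lie lower in all 4 M+Fc-GLP-1 mice, Per1, Hlf, Dbp, Usp2 and Ciart lie higher in all 4, and Clock, Nr1d1 and Per2 did not pass the threshold; Ciart was not well above background on any chow array.

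The E-box CACGTG is the element through which the Arntl and Clock pair acts. The promoters of Ciart and Per1 that hold it are shown here because these genes moved opposite to Arntl. They run from 250 bases before to 50 after the start of the gene in RefSeq (GRCm38.p6), Ciart at chr3:95882179-95882478, minus strand and Per1 at chr11:69098699-69098998, plus strand, written in the direction of the gene with each E-box in capitals. Of the 15 tested clock genes with a promoter in the table, 4 held an E-box, 3 of them among the 9 that rose and none among the pair that fell, against 8.09% of all 27025 genes. The search covered both strands and was chosen after the values were seen. A match describes the letters of this window alone.
Ciart: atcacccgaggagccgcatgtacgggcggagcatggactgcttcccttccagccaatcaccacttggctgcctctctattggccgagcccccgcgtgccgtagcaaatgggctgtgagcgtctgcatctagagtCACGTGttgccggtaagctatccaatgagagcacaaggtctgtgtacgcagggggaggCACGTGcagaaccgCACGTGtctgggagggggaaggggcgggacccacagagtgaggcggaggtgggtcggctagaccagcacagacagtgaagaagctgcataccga
Per1: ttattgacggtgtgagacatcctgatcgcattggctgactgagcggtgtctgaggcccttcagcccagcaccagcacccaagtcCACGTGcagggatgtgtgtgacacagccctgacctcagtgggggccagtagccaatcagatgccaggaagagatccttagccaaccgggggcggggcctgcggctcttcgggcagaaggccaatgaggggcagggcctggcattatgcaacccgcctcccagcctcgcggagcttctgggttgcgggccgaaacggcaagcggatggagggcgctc

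Genes of fat oxidation and of lipid droplets were higher and genes of fat and cholesterol synthesis lower in M+Fc-GLP-1 mice. Of 39 tested targets of PPAR alpha and enzymes of fat oxidation, 15 were higher and none lower, with a median of 0.70, beside 6.2% of all genes higher. The acyl-CoA thioesterases led: Acot3 lay at 5.10, 5.04, 3.65 and 3.02 in M+Fc-GLP-1 and -2.24, -0.43, 1.08 and -1.09 in C+Fc-GLP-1 mice (4.87 ± 0.70, adjusted p = 1.6e-05), Acot2 differed by 3.58 ± 0.58, adjusted p = 8.1e-05 and Acot5 by 2.61 ± 0.39, adjusted p = 2.7e-05. Acot genes are near copies of each other and may share signal. The fatty acid hydroxylase Cyp4a14 (4.72 ± 0.79, adjusted p = 1.2e-04), the lipoprotein lipase inhibitor Angptl4 (2.30 ± 0.46, adjusted p = 9.9e-04) and Cpt1a, which admits fatty acids to mitochondria (1.30 ± 0.22, adjusted p = 1.4e-04), also rose. Smaller rises were those of Vnn1 (2.04), Pex11a (1.72), Acadl (0.89) and Hadhb (0.75). At the time of PH 20 of the 39 were higher and none lower.

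Fgf21, a liver hormone induced by PPAR alpha and by ATF4, read 2.84, 3.56, 1.75 and 3.12 in M+Fc-GLP-1 and -1.06, -0.19, -2.0 and -3.54 in C+Fc-GLP-1 mice, a difference of 4.51 ± 0.54, adjusted p = 1.1e-06. The chow arrays were widely spread, from -3.54 to -0.19, and still lay below every MCD array. Before PH the difference was 3.23 ± 0.54, adjusted p = 1.4e-04, and in mice without drug after PH it was 7.06 ± 0.54, adjusted p = 5.3e-10. The diets of the mice without drug lay on different slides, so in that value diet and slide cannot be told apart.

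Of 21 tested genes of lipid droplets and lipolysis 7 were higher and 1 lower, median 0.69, beside 6.2% of all genes higher. Cidec, which fuses droplets into larger ones, lay at 3.65, 4.03, 3.39 and 5.01 against -1.35, -1.41, -2.66 and -2.75 (6.07 ± 0.58, adjusted p = 4.5e-08). Plin4 read 4.12, 4.68, 4.53 and 4.13 against -0.16, 0.78, -0.69 and -0.73 (4.56 ± 0.54, adjusted p = 9.0e-07). Both are at low levels in lean liver and neither group overlapped the other. Plin5, which tethers droplets to mitochondria (1.96 ± 0.27, adjusted p = 1.0e-05), the lipase Pnpla2 (1.32 ± 0.31, adjusted p = 0.0044), its inhibitor G0s2 (1.88), the fatty acid transporter Cd36 (1.5 ± 0.40, adjusted p = 0.012) and the general droplet protein Plin2 (0.82 ± 0.26, adjusted p = 0.031) were higher, and Fitm1 was lower (-1.37). The call on Cd36 was lost without C+Fc-GLP-1 replicate 4 or M+Fc-GLP-1 replicate 3 (adjusted p up to 0.076), and that on Plin2 without C+Fc-GLP-1 replicate 1 or 3 or M+Fc-GLP-1 replicate 1 or 2 (adjusted p up to 0.14). With C+Fc-GLP-1 replicate 4 left out the list held 5 higher and 0 lower genes. Mfsd2a, which carries lysophosphatidylcholine across membranes, was among the largest rises of all genes (6.07 ± 0.75, adjusted p = 2.1e-06).

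Of 27 tested genes of lipogenesis 9 fell and 2 rose, median -0.77, beside 6.62% of all genes lower and 6.2% higher. Scd1, the stearoyl-CoA desaturase, read 5.95, 4.58, 4.47 and 4.94 in M+Fc-GLP-1 and 8.35, 8.67, 7.83 and 7.63 in C+Fc-GLP-1 mice (-3.13 ± 0.40, adjusted p = 2.9e-06). Fasn, the fatty acid synthase, read 2.01, 1.42, 1.94 and 0.53 against 3.61, 3.26, 3.37 and 4.73 (-2.27 ± 0.44, adjusted p = 7.2e-04). Acss2, which makes acetyl-CoA from acetate (-3.21 ± 0.45, adjusted p = 1.3e-05), Acly, which makes it from citrate (-1.77 ± 0.31, adjusted p = 2.5e-04), the elongase Elovl6 (-2.19), the triglyceride remodelling enzyme Pnpla3 (-2.92), Acacb (-1.19), Insig1 (-1.23) and the regulator Srebf1 (-1.50 ± 0.31, adjusted p = 0.0015) made up the rest. The genes that rose were the phosphatidate phosphatases Lpin1 (1.78 ± 0.36, adjusted p = 0.0011) and Lpin2 (1.84).

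**Figure D3:**
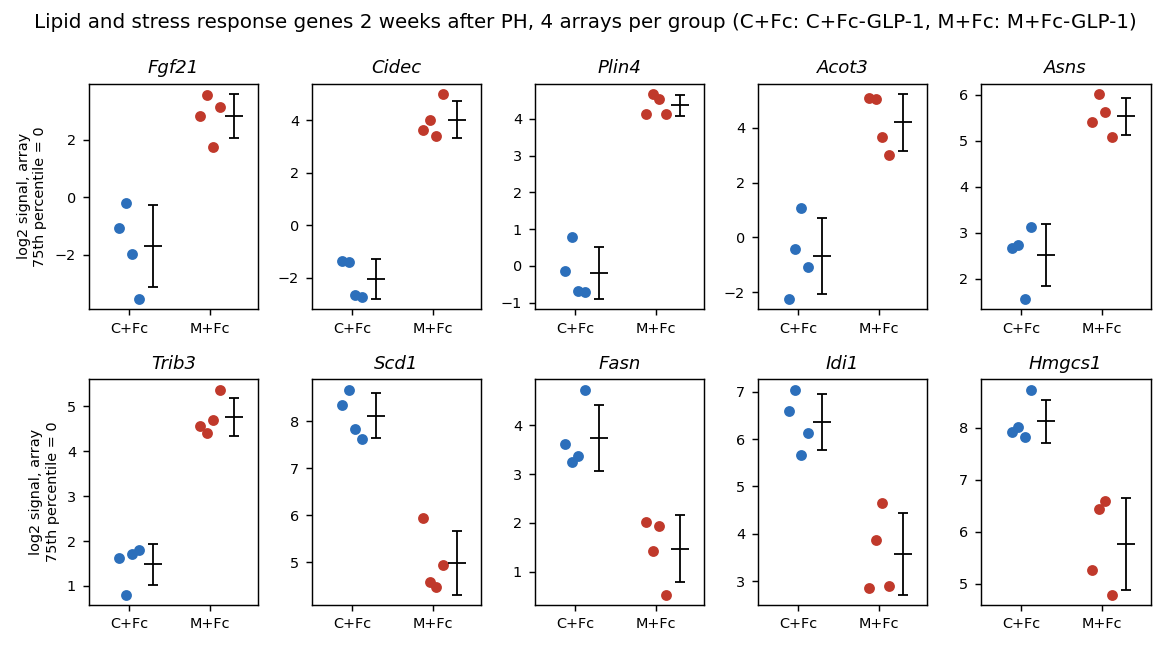
Log2 signal (y axis, array 75th percentile = 0, each panel with its own scale) of 10 genes of lipid metabolism and the amino acid response on each array of the C+Fc-GLP-1 (blue) and M+Fc-GLP-1 (red) groups after PH, with mean and SD in black. Fgf21, Cidec, Plin4, Acot3, Asns and Trib3 lie higher in every M+Fc-GLP-1 mouse, and Scd1, Fasn, Idi1 and Hmgcs1 lie lower in every one.

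Cholesterol synthesis had lower signals from early to late steps: 15 of 29 tested genes were lower and none higher, with a median of -1.23, beside 6.62% of all genes lower. From the start of the pathway on, Hmgcs1, which makes HMG-CoA, read 5.26, 6.44, 6.60 and 4.80 against 7.92, 8.01, 7.82 and 8.73 (-2.35 ± 0.40, adjusted p = 1.7e-04). Pmvk (-1.63, adjusted p = 8.8e-05), Mvd (-2.55) and Idi1, which complete the isoprenoid unit, were lower, Idi1 at 2.86, 3.87, 4.65 and 2.90 against 6.59, 7.04, 5.66 and 6.13 (-2.79 ± 0.45, adjusted p = 9.2e-05). The squalene and lanosterol steps Fdps, Fdft1, Sqle, Lss and Cyp51 differed by -1.27, -1.60, -1.55, -1.65 and -2.25. Late steps were lower too, with Nsdhl at -2.67 (adjusted p = 1.5e-04) and Tm7sf2, a sterol reductase, at -3.30 (adjusted p = 4.3e-07). The regulator Srebf2 did not pass (-0.34, adjusted p = 0.56). At the time of PH 7 of the 29 were lower. The median of mice without drug after PH, whose diets lay on different slides, was -0.07. Without the pair of arrays that stood apart, 9 of the 29 were lower.

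SREBP factors bind the sterol element TCACNCCAC, and Hmgcs1 was the only gene of the list that held it in its promoter, among 18 with a promoter in the table, against 1.44% of all 27025 genes. Its promoter is shown for that reason, at chr13:119690101-119690400, plus strand of GRCm38.p6 (RefSeq), with the element in capitals; both strands were searched.
Hmgcs1: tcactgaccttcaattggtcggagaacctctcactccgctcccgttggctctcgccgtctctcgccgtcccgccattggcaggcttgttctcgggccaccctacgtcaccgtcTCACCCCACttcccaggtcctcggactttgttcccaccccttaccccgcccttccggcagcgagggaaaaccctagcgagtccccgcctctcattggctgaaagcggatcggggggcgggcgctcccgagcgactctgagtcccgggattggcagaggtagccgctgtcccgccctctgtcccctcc

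Of 34 tested genes of endoplasmic reticulum stress and the integrated stress response, 11 were higher and 3 lower, median 0.58. Over all genes 6.2% were higher and 6.62% lower. Psat1, of serine synthesis, led (4.61 ± 0.54, adjusted p = 9.0e-07). Asns, the asparagine synthetase, read 5.41, 6.02, 5.63 and 5.08 in M+Fc-GLP-1 and 2.67, 2.74, 1.56 and 3.13 in C+Fc-GLP-1 mice (3.01 ± 0.44, adjusted p = 2.3e-05). Trib3, a pseudokinase that damps the response, read 4.56, 4.41, 4.70 and 5.38 against 1.62, 0.80, 1.72 and 1.80 (3.28 ± 0.54, adjusted p = 1.1e-04). The stress protein Nupr1 (2.45 ± 0.63, adjusted p = 0.0095), the cationic amino acid transporter Slc7a1 (2.22), the lipoprotein receptor Vldlr (2.89), Herpud1 (1.24), Gpt2 (1.18), Eif4ebp1 (1.11) and Cebpb (1.01) completed the rises together with Fgf21. The call on Nupr1 was lost without M+Fc-GLP-1 replicate 4 (adjusted p up to 0.052). Sdf2l1, a chaperone cofactor, was lower (-3.18 ± 0.44, adjusted p = 1.0e-05), as were Edem1 (-1.37) and Calr (-0.93). The chaperone Hspa5 (-0.08, adjusted p = 0.92) and the mRNA of Atf4 itself (0.11, adjusted p = 0.87) did not pass. Adm2, a peptide of the adrenomedullin family, was at least 12.9-fold higher (adjusted p = 1.1e-06) against chow arrays none of which measured it.

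ATF4 binds composite elements of the form TGATGNAA. It was present, on either strand, in the promoters of 9 of the 31 members of the list with a promoter in the table, 29.0%, against 4.51% of all 27025 genes. It was held by 6 of the 10 that rose, none of the 3 that fell and 3 of the 18 others. The list was chosen with earlier results of these data known. A match describes the letters of the window alone, and binding of ATF4 was not tested. The promoters of Fgf21, Asns, Trib3 and Nupr1 are shown because all 4 genes rose and hold the element, in capitals below. In RefSeq (GRCm38.p6) they lie at chr7:45615441-45615740, minus strand for Fgf21, chr6:7693160-7693459, minus strand for Asns, chr2:152344011-152344310, minus strand for Trib3 and chr7:126625421-126625720, minus strand for Nupr1. In Fgf21, Trib3 and Nupr1 the capitals are the reverse complement of the element, which lies on the opposite strand.
Fgf21: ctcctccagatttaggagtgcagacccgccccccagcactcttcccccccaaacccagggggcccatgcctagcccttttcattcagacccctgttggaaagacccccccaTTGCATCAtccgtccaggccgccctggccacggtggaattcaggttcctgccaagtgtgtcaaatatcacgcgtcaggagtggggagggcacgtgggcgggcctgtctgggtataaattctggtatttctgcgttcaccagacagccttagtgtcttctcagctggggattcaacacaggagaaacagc
Asns: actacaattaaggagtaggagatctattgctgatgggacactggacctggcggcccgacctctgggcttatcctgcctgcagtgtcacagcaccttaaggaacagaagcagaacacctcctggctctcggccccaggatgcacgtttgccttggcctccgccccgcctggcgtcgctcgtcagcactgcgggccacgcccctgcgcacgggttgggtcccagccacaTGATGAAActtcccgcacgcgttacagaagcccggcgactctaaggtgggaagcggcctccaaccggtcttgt
Trib3: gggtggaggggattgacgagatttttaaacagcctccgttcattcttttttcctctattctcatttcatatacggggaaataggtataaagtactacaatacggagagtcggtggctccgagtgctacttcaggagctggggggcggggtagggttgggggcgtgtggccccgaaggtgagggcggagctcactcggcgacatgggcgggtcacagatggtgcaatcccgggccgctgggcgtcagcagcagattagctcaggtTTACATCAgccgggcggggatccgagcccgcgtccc
Nupr1: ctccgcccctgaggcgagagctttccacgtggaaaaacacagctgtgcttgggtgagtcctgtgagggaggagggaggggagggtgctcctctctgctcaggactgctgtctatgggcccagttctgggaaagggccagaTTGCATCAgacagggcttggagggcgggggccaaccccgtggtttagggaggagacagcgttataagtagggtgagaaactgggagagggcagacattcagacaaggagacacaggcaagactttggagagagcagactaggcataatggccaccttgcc

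In the pathways that handle methionine, folate and choline, 5 of 35 tested genes were higher and 3 lower, median -0.14, or 0.01 without M+Fc-GLP-1 replicate 4. Mthfd1l, the mitochondrial formate producer, rose most (3.62 ± 0.38, adjusted p = 2.3e-07), followed by the methionine synthase reductase Mtrr (2.37), the folate carrier Slc19a1 (1.72, adjusted p = 7.7e-06), Mat2a, which makes S-adenosylmethionine (1.54, adjusted p = 0.0013), and the spermidine synthase Srm (1.08). The choline kinase Chka (-1.83, adjusted p = 2.9e-06) and Aldh7a1 (-1.01) were among the lower. Pemt, which makes phosphatidylcholine by methylation, did not pass (0.68 ± 0.30, adjusted p = 0.14).

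Antioxidant genes were divided, 6 higher and 6 lower of 38 tested, median -0.16. The metallothionein Mt1 (4.26 ± 0.51, adjusted p = 1.1e-06), the aldo-keto reductase Akr1b7 (4.55 ± 0.67, adjusted p = 2.6e-05), the exporter Abcc4 (3.15 ± 0.41, adjusted p = 4.2e-06), Nqo1 (2.15), Gss (1.58) and Gstt2 (1.16) were higher. Gclc, the rate-limiting enzyme of glutathione synthesis (-1.70), Gstm6 (-1.46, adjusted p = 6.5e-05), the catalase Cat (-1.20), Gstp1 (-1.15), Gstt1 (-0.93) and the regulator Nfe2l2 itself (-0.93) were lower. The antioxidant element TGACNNNGC was in the promoters of 9 of the 33 members in the table, 27.3%, against 13.99% of all genes, and in 1 of the 5 risers and 1 of the 5 fallers among them.

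In bile acid handling, 3 of 27 tested genes were higher and 8 lower, median -0.32. The basolateral exporters Abcc4 and Slc51b (2.58) and the transporter Slco1a4 (1.59) rose. The fallers were Slco1a1, Cyp7b1, the bile duct transporter Slc10a2 (-2.21 ± 0.36, adjusted p = 9.6e-05), the export pump Abcb11 (-1.35 ± 0.43, adjusted p = 0.034), Cyp27a1 (-1.26 ± 0.38, adjusted p = 0.024), Baat (-1.28), the receptor Fgfr4 (-1.02) and Atp8b1 (-1.02). Cyp7a1, the rate-limiting enzyme of bile acid synthesis, did not pass (1.56 ± 0.61, adjusted p = 0.091). The call on Abcb11 was lost without C+Fc-GLP-1 replicate 3 or 4 or M+Fc-GLP-1 replicate 1, 2 or 4 (adjusted p up to 0.14), and that on Cyp27a1 without C+Fc-GLP-1 replicate 2 or 4 or M+Fc-GLP-1 replicate 4 (adjusted p up to 0.076).

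Xenobiotic enzymes were lower more often than higher, 12 against 4 of 39 tested, median -0.48, beside 6.62% of all genes lower and 6.2% higher. The electron donor of the cytochromes, Por, was higher, at 7.67, 7.06, 6.99 and 6.80 in M+Fc-GLP-1 against 4.58, 4.76, 5.13 and 4.44 in C+Fc-GLP-1 mice (2.40 ± 0.27, adjusted p = 4.8e-07). Cyp2g1 (2.11), Cyp1b1 (1.26) and Cyp3a25 (0.98) also rose. The carboxylesterases Ces1f, Ces3b, Ces2a and Ces3a differed by -3.19, -2.66, -2.02 and -1.94, and the cytochromes Cyp2c38 (-1.95, adjusted p = 0.0011), Cyp2j5 (-1.90), Cyp2c54 (-1.88), Cyp2c55 (-1.81, adjusted p = 1.6e-04) and Cyp2c39 (-1.64) were lower. The count of the list fell to 2 higher and 7 lower without C+Fc-GLP-1 replicate 2 and to the same numbers without M+Fc-GLP-1 replicate 2, and to 2 and 8 without C+Fc-GLP-1 replicate 3 or 4.

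Retinol metabolism held 5 higher and 7 lower genes of 28 tested, median -0.31, and 6 and 5 without M+Fc-GLP-1 replicate 4. The retinoic acid hydroxylase Cyp26b1 (2.39), the dehydrogenase Rdh9 (1.43, adjusted p = 0.0018), the carotene cleaving Bco1 (1.22) and the receptors Rxra (0.84) and Rara (0.69) were higher. The alcohol dehydrogenase Adh4 (-1.97, adjusted p = 4.3e-04), Bco2 (-1.36, adjusted p = 0.0028), the retinol transporter Stra6l (-1.23, adjusted p = 0.0023), Rdh11 (-1.24), Rdh7 (-0.99), Dhrs3 (-0.96) and Ces1d (-0.95) were lower.

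Genes of complement proteins, which hepatocytes secrete, were lower. Of 33 tested genes of complement and coagulation, 10 were lower and none higher, median -0.54, beside 6.62% of all genes lower. The terminal components stood out, with C6 as above, C8b at -3.08 ± 0.43, adjusted p = 1.0e-05, C8a at -2.32 ± 0.35, adjusted p = 3.7e-05 and C9 at -2.28 ± 0.42, adjusted p = 4.0e-04. Other fallers were F11 (-1.55), Masp2 (-1.17), C1s1 (-0.92), Pros1 (-0.84) and C1ra (-0.58). C6 and C8a also belong to the male-biased list. Before PH 9 of the 33 were lower and none higher.

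Of 25 acute phase genes 1 rose, the serum amyloid P component Apcs (2.64 ± 0.34, adjusted p = 3.9e-06), and 4 fell. The fallers were Saa1 (-3.07 ± 0.63, adjusted p = 0.0013) and Saa2 (-3.50 ± 0.70, adjusted p = 9.6e-04), near copies whose signals may mix, Saa4 (-1.78, adjusted p = 0.0036) and Crp (-1.36). The median of the list was 0.02 and changed sign with single arrays, down to -0.12 without M+Fc-GLP-1 replicate 3. Among 22 genes of iron handling the antimicrobial peptide Hamp2 (1.47, adjusted p = 0.033) and the ferrireductase Steap3 (0.98, adjusted p = 0.010) were higher and the transporter Slc11a2 (-1.18, adjusted p = 0.029) lower, median 0.21, beside 6.2% of all genes higher and 6.62% lower. The call on Hamp2 was lost without C+Fc-GLP-1 replicate 1 or 4 or M+Fc-GLP-1 replicate 1 or 3 (adjusted p up to 0.12), that on Steap3 without M+Fc-GLP-1 replicate 2 (adjusted p up to 0.050) and that on Slc11a2 without C+Fc-GLP-1 replicate 1 or 2 or M+Fc-GLP-1 replicate 2, 3 or 4 (adjusted p up to 0.13).

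Glucose and glycogen genes were divided, 7 higher and 3 lower of 31 tested, median 0.17. The glycogen targeting subunit Ppp1r3c was lower (-3.75 ± 0.60, adjusted p = 7.7e-05), whereas another such subunit, Ppp1r3g, was higher (4.61 ± 0.82, adjusted p = 2.6e-04). The pyruvate kinase Pklr (1.57), Pfkfb3 (1.48), the glucose transporter Slc2a2 (1.09), Ppp1r3b (1.04) and the serine dehydratase Sds (1.57, adjusted p = 6.4e-04) rose, and the glycogen phosphorylase Pygl fell (-0.80). The 7 higher and 3 lower genes became 3 and 2 without M+Fc-GLP-1 replicate 1, and 4 and 2 without M+Fc-GLP-1 replicate 2, C+Fc-GLP-1 replicate 3 or C+Fc-GLP-1 replicate 4.

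Of 36 genes of amino acid breakdown and the urea cycle 4 were higher and 3 lower, median -0.11. The ornithine transcarbamylase Otc, of the urea cycle, fell most (-2.64 ± 0.42, adjusted p = 7.7e-05), then Oat (-1.54 ± 0.39, adjusted p = 0.0086) and Kmo (-0.94, adjusted p = 0.020), whose call was lost without C+Fc-GLP-1 replicate 3 or 4 or M+Fc-GLP-1 replicate 4 (adjusted p up to 0.090). Sds, Tat and Sdsl (0.89, adjusted p = 0.026) were among the higher, the call on Sdsl being lost without C+Fc-GLP-1 replicate 1, 2 or 4 or M+Fc-GLP-1 replicate 1 (adjusted p up to 0.10). Without M+Fc-GLP-1 replicate 4 the list held 2 higher and 2 lower genes, median 0.09. The balance turned to lower genes without C+Fc-GLP-1 replicate 1 (2 higher and 6 lower, median -0.40), C+Fc-GLP-1 replicate 2 (2 and 3) or M+Fc-GLP-1 replicate 1 (1 and 4), without the pair that stood apart (1 and 3), and with centring on the median (1 and 4). Zonation markers showed no common direction. Of 18 periportal genes 3 rose, among them Apoa4 (3.20 ± 0.36, adjusted p = 5.9e-07), and 1 fell, and of 17 pericentral genes 1 rose, Slc1a4 (1.21, adjusted p = 0.031), and 3 fell, Oat, Cyp27a1 and Slc1a2 (-1.38, adjusted p = 0.040). The call on Slc1a4 was lost without C+Fc-GLP-1 replicate 1 or 4 or M+Fc-GLP-1 replicate 1 or 2 (adjusted p up to 0.18), and that on Slc1a2 without C+Fc-GLP-1 replicate 2, 3 or 4 or M+Fc-GLP-1 replicate 2, 3 or 4 (adjusted p up to 0.12).

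Several lists of immune cell markers held lower and no higher genes in M+Fc-GLP-1 mice, beside 6.62% of all genes lower. In whole liver, fewer cells of a type and less RNA per cell cannot be told apart. For B and plasma cells 6 of 16 tested genes were lower and none higher, median -1.18, among them Derl3 (-2.87, adjusted p = 3.0e-04), Ms4a1 (-2.24), Bank1 (-2.23, adjusted p = 8.5e-04), Cd79b (-1.22) and Cd22 (-0.91, adjusted p = 0.0061). Cd22 lost its call with normexp and quantile normalization, the authors' values and the compared arrays alone (adjusted p up to 0.15). The count of 6 lower genes was 3 with the authors' values and 9 without M+Fc-GLP-1 replicate 3. The signals of Bank1, a scaffold of B cell receptor signalling, were -5.15, -3.72, -4.19 and -3.93 in M+Fc-GLP-1, above background on 3 of these 4 arrays, and -1.25, -2.55, -2.25 and -2.04 in C+Fc-GLP-1 mice. The log2 of the mean linear signal of the B cell list was 1.04 to 1.35 on the MCD and 1.08 to 1.61 on the chow arrays, so these ranges overlapped. For T and NK cells 6 of 23 were lower and none higher, median -0.71, with the T cell kinase Zap70 at -1.78 ± 0.42, adjusted p = 0.0051 and Cd7 at -1.75 ± 0.32, adjusted p = 3.7e-04, besides Cd3g (-1.44, adjusted p = 0.011), Cd2 (-1.33, adjusted p = 0.016), Ccl5 (-1.15, adjusted p = 0.029) and Cd3d (-0.89). The log2 of the mean linear signal of that list was 0.12 to 1.23 on the MCD and 1.36 to 2.19 on the chow arrays, with no overlap. Without the pair of arrays that stood apart this count was 2, and it was 3 without C+Fc-GLP-1 replicate 3 or M+Fc-GLP-1 replicate 4. The call on Cd3g was lost without M+Fc-GLP-1 replicate 4 (adjusted p up to 0.055), that on Cd2 without C+Fc-GLP-1 replicate 3 or M+Fc-GLP-1 replicate 1 (adjusted p up to 0.071) and that on Ccl5 without C+Fc-GLP-1 replicate 1 or 3 or M+Fc-GLP-1 replicate 2 or 4 (adjusted p up to 0.13).

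Of 15 genes of MHC class II presentation 3 were lower, Cd209a (-2.09, adjusted p = 0.0044), H2-Ob (-1.36, adjusted p = 0.0054) and H2-Oa (-1.24, adjusted p = 0.030), and the call on H2-Oa was lost without C+Fc-GLP-1 replicate 1 or 3 or M+Fc-GLP-1 replicate 1, 2 or 4 (adjusted p up to 0.10). Without the pair of arrays that stood apart 1 of the 15 was lower, and the median moved from -0.77 to -0.31. Markers of resident Kupffer cells were lower in 5 of 19 genes, beside 6.62% of all genes lower, with a median of -0.87: Cd207 (-1.56, adjusted p = 0.0070), Timd4 (-1.51), Folr2 (-1.45, adjusted p = 0.025), Fcna (-1.12, adjusted p = 0.036) and Clec4f (-1.08, adjusted p = 0.041). The log2 of the mean linear signal of the Kupffer list was 3.85 to 4.27 on the MCD and 4.16 to 4.83 on the chow arrays. The count rested on single arrays, being 1 without C+Fc-GLP-1 replicate 1 or M+Fc-GLP-1 replicate 2, 2 without M+Fc-GLP-1 replicate 1 or 4, 3 without C+Fc-GLP-1 replicate 2 or 3, and 1 without the pair that stood apart. Of 25 genes of recruited and lipid-associated macrophages the tetraspanin Cd63 (2.57 ± 0.50, adjusted p = 6.6e-04) and the protease Ctsd (0.87, adjusted p = 0.0085) were higher and Fabp5 lower, median -0.27, beside 6.2% of all genes higher and 6.62% lower. Without C+Fc-GLP-1 replicate 1 that list held 5 higher and 1 lower genes, and its median turned to 0.41. Ctsd lost its call with normexp and quantile normalization, the authors' values, probe means and the compared arrays alone (adjusted p up to 0.29).

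Of 36 tested genes of the interferon response 10 were lower and none higher, median -0.70, beside 6.62% of all genes lower. Ifi27l2a read 2.48, 2.36, 2.62 and 2.29 against 5.84, 4.57, 4.53 and 4.46 (-2.41 ± 0.40, adjusted p = 1.1e-04), and C+Fc-GLP-1 replicate 1 was the highest of the 8 arrays. The antiviral enzymes Oas2 (-2.06 ± 0.34, adjusted p = 1.3e-04) and Oas1a (-2.02 ± 0.38, adjusted p = 5.3e-04), the tetherin Bst2 (-1.40 ± 0.25, adjusted p = 2.5e-04), Ifit3 (-2.02), Ifi27 (-1.57), Mx2 (-1.41), Mx1 (-1.32), Ddx58 (-0.89) and Stat2 (-0.75) were also lower. Gbp5, an interferon-induced GTPase that is no member of the list, was higher (3.29), but its other probe was not, as given below with the time interaction. Without the pair of arrays that stood apart 6 of the 36 list members were lower, and without M+Fc-GLP-1 replicate 2 there were 12, median -0.99. The log2 of the mean linear signal of the list was 2.24 to 4.61 on the MCD and 3.75 to 3.96 on the chow arrays. The highest MCD array thus lay above all chow arrays.

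Of 27 chemokines and receptors 5 were lower and none higher, median -0.71, beside 6.62% of all genes lower: Cxcl14 (-1.99, adjusted p = 0.018), Cxcl9 (-1.48), Ccl9 (-1.45, adjusted p = 0.012), Cxcr3 (-1.18, adjusted p = 0.012) and Ccl5. The count was 1 without C+Fc-GLP-1 replicate 1, 2 without M+Fc-GLP-1 replicate 2 and 3 without C+Fc-GLP-1 replicate 3. Cxcl14 lost its call without C+Fc-GLP-1 replicate 1 or M+Fc-GLP-1 replicate 1 or 2 (adjusted p up to 0.097). The same held with normexp and quantile normalization, the authors' values and the compared arrays alone (adjusted p up to 0.12). Ccl9 lost it without M+Fc-GLP-1 replicate 4 (adjusted p up to 0.056) and Cxcr3 without C+Fc-GLP-1 replicate 1 (adjusted p up to 0.051). Of 30 cytokines, inflammasome genes and Toll-like receptors, Il1b (-2.32 ± 0.47, adjusted p = 0.0012) and Il18 (-1.10 ± 0.26, adjusted p = 0.0054) were lower and the receptors Il6ra (1.53 ± 0.37, adjusted p = 0.0054) and Il1r1 (1.36 ± 0.40, adjusted p = 0.022) higher, median -0.13, or 0.02 without the pair that stood apart. Over all genes 6.2% were higher and 6.62% lower. Il18 lost its call with normexp and quantile normalization, with the authors' values and without both arrays that stood apart (adjusted p up to 0.094). The call on Il1r1 was lost without C+Fc-GLP-1 replicate 1 or 4 or M+Fc-GLP-1 replicate 2 or 3 (adjusted p up to 0.10). Il1b lay at -1.64, -2.71, -1.03 and -2.06 in M+Fc-GLP-1 and 1.82, 1.09, -0.18 and -0.89 in C+Fc-GLP-1 mice. Of 20 neutrophil genes Il1b and Fpr1 (-1.73, adjusted p = 0.0065) were lower and Stfa1 at least 3.45-fold higher (adjusted p = 0.0027), median -0.03, which was 0.32 without C+Fc-GLP-1 replicate 1 and -0.49 without M+Fc-GLP-1 replicate 3. These calls too stand beside 6.2% of all genes higher and 6.62% lower.

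Few fibrosis genes passed the threshold. Of 34 collagens and matrix genes 4 were lower and none higher, median -0.34, beside 6.62% of all genes lower: the prolyl hydroxylase P4ha1 (-2.24 ± 0.39, adjusted p = 1.9e-04), Col5a3 (-1.90 ± 0.34, adjusted p = 2.5e-04), Col14a1 (-1.54 ± 0.33, adjusted p = 0.0019) and the collagen chaperone Serpinh1 (-1.51 ± 0.36, adjusted p = 0.0051). Without M+Fc-GLP-1 replicate 4 there were 7. None of 17 matrix proteases and inhibitors passed, Mmp7 having the largest difference (3.21 ± 1.20, adjusted p = 0.077), and Timp3 differed by 0.63 ± 0.25, adjusted p = 0.10. Of the 17, 2 were higher without C+Fc-GLP-1 replicate 1, 2 without M+Fc-GLP-1 replicate 3, 1 after normexp and quantile normalization and 1 with the replicate block. Of 25 genes of stellate cells and myofibroblasts Spon2 (-1.71, adjusted p = 2.3e-04), Ngfr (-1.58, adjusted p = 8.4e-04) and Nes (-1.31, adjusted p = 0.0090) were lower, median -0.23, and the call on Nes was lost without M+Fc-GLP-1 replicate 3 (adjusted p up to 0.055). Of 31 genes of TGF beta signalling the inhibitor Fst (-2.78 ± 0.48, adjusted p = 1.6e-04), Bmp4 (-2.08 ± 0.27, adjusted p = 4.2e-06) and Id2 (-1.24, adjusted p = 0.015) were lower, median -0.11, the call on Id2 being lost without C+Fc-GLP-1 replicate 2 or M+Fc-GLP-1 replicate 2 (adjusted p up to 0.074), and the median turned to 0.09 without C+Fc-GLP-1 replicate 1. That is 3 of 25 stellate cell and 3 of 31 TGF beta genes lower, beside 6.62% of all genes.

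Of 18 genes named in the study, mostly of inflammation and fibrosis and with Fgf21 and Glp1r among them, 16 could be tested and a pair passed, Fgf21 and Il1b. The macrophage marker Adgre1 (F4/80) lay at -0.51, 0.21, 0.56 and -0.20 in M+Fc-GLP-1 and 2.63, 1.38, 1.31 and 0.80 in C+Fc-GLP-1 mice (-1.52 ± 0.59, adjusted p = 0.092). The cytokines Tnf (0.26, adjusted p = 0.86) and Ccl2 (-1.04, adjusted p = 0.49), the fibrosis genes Col1a1 (-0.65, adjusted p = 0.57), Acta2 (-0.14, adjusted p = 0.92), Des (-0.50, adjusted p = 0.22), Tgfb1 (-0.14, adjusted p = 0.87), Mmp2 (-0.48, adjusted p = 0.51) and Fap (-0.30, adjusted p = 0.77), and the protease Dpp4 (-0.86, adjusted p = 0.15) did not pass. Nor did the cytotoxic genes Gzmb (-1.21, adjusted p = 0.18) and Prf1 (0.21, adjusted p = 0.70), the neutrophil marker Ly6g (-0.34, adjusted p = 0.52) or Glp1r, the receptor of the drug (0.23, adjusted p = 0.85), whose probe was above background on 3 of 4 arrays of each group. The differences of Tnf, Tgfb1, Fap and Acta2 changed sign when single arrays were left out.

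**Figure D4:**
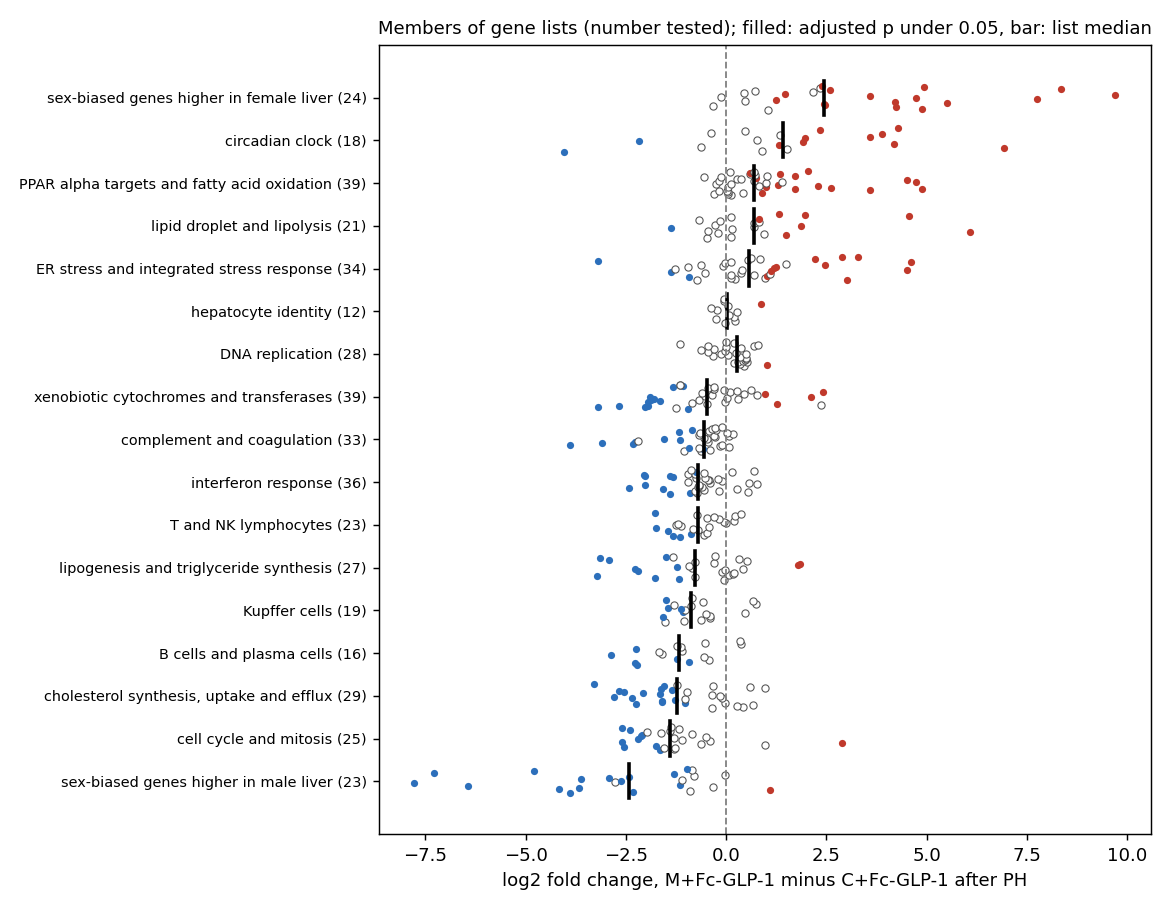
Difference on the log2 scale (x axis, M+Fc-GLP-1 minus C+Fc-GLP-1 after PH) of each tested member of 17 gene lists, with the number tested beside each name; filled points passed the threshold (red higher, blue lower), open points did not, black bars are list medians and the dashed line is the median of all 21071 genes, -0.01. The female-biased list has the highest median (2.45) of the lists drawn and the male-biased list the lowest (-2.42).

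Cell division genes differed between the time points. After PH 1 of 25 tested cell cycle and mitosis genes was higher and 9 were lower, median -1.41, whereas at the time of PH 8 were higher and none lower, median 1.35. Over all genes 6.2% were higher and 6.62% lower after PH, and 5.35% higher and 5.01% lower before. The counts of this list before PH come from the main fit alone, and their dependence on the processing was not tested. Ccnb1, the mitotic cyclin, read -4.79, -3.06, -3.79 and -2.19 in M+Fc-GLP-1 and -2.22, -0.14, 0.23 and -1.56 in C+Fc-GLP-1 mice after PH (-2.54 ± 0.73, adjusted p = 0.019), and -0.09, -1.84, -3.68 and -0.60 against -4.01, -3.72, -3.76 and -5.87 before it (2.79 ± 0.73, adjusted p = 0.012). Cdc20, the activator of the anaphase-promoting complex, read -1.22, -1.11, -2.09 and 0.52 against 0.13, 2.56, 2.99 and 0.81 after PH (-2.60 ± 0.71, adjusted p = 0.014) and 2.26, 1.25, -1.44 and 1.48 against -1.98, -1.21, -1.51 and -1.67 before it (2.48 ± 0.71, adjusted p = 0.023). The chow mean was the higher one after PH and the lower one before in both genes, while single arrays of the diets overlapped after PH in both and before PH in Cdc20. The other genes lower after PH were Tpx2 (-2.59), Prc1 (-2.40), Cenpe (-2.20), Kif20a (-2.12, adjusted p = 0.011), Melk (-2.10), Ccnb2 (-1.75, adjusted p = 0.017) and Aurka (-1.65). The cyclin of S phase entry, Ccne1, was higher at both times (2.89 ± 0.32, adjusted p = 4.0e-07 after PH and 2.78 ± 0.32, adjusted p = 6.5e-07 before). The proliferation marker Mki67 did not pass (-0.86 ± 0.57, adjusted p = 0.38).

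The falls after PH rested on few arrays. Of the 9 genes, none was called without C+Fc-GLP-1 replicate 3, 1 without M+Fc-GLP-1 replicate 3, 2 without C+Fc-GLP-1 replicate 2 and 3 without M+Fc-GLP-1 replicate 1, and none with the normalized values that the authors deposited. Leaving out the pair of arrays that stood apart gave 10. Of 28 genes of DNA replication the licensing factor Cdt1 alone passed (1.02, adjusted p = 0.015), median 0.28, and its call was lost without C+Fc-GLP-1 replicate 2 or 4 or M+Fc-GLP-1 replicate 3 (adjusted p up to 0.072). Of 25 cell cycle inhibitors and p53 targets, the inhibitor Cdkn1c (1.32, adjusted p = 0.0053) and Gadd45b (1.68, adjusted p = 0.040) were higher and Plk2 (-1.67, adjusted p = 0.0056), Cdkn2b (-1.54) and the apoptosis gene Bbc3 (-1.52, adjusted p = 9.9e-04) lower, median 0.09, or -0.10 without C+Fc-GLP-1 replicate 4. The call on Gadd45b was lost without C+Fc-GLP-1 replicate 2, 3 or 4 or M+Fc-GLP-1 replicate 1, 2, 3 or 4 (adjusted p up to 0.13).

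**Figure D5:**
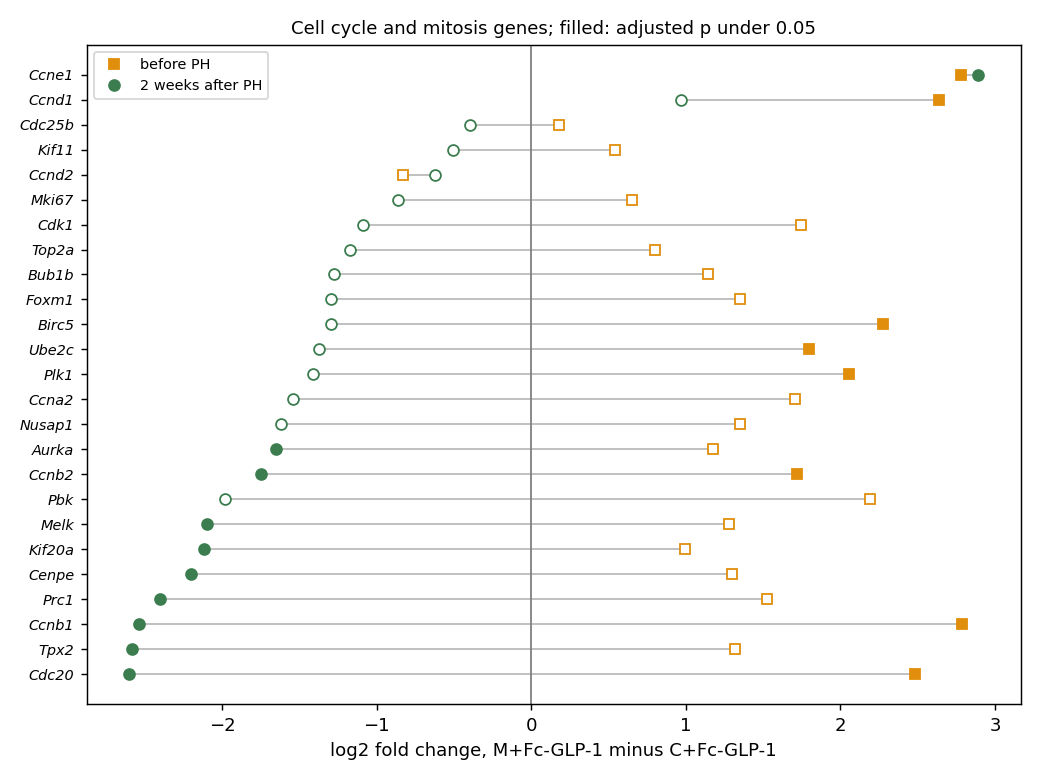
Difference between M+Fc-GLP-1 and C+Fc-GLP-1 mice on the log2 scale (x axis) of the 25 tested cell cycle and mitosis genes (y axis), at the time of PH (orange squares) and 2 weeks after (green circles), filled where the adjusted p was under 0.05. All but Ccne1 and Ccnd1 lie below 0 after PH, with a median of -1.41, against 1.35 before.

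The difference between the diets itself changed with time in 20 of 21071 genes (0.0949%) by the interaction of diet and time, 10 in each direction, against 10 upwards and 2 downwards with arrays centred on the median, 4 and 1 after normexp and quantile normalization, and 8 and 1 with the authors' values. With the compared arrays alone 3 genes changed upwards and 1 downwards. Most of the downward genes named next therefore lose the call in each of these settings. The arrays of the earlier and the later time lay on different slides. In the main fit Ccnb1 changed most downwards (-5.32 ± 1.03, adjusted p = 0.032), followed by Cdc20 (-5.08 ± 1.01, adjusted p = 0.043) and the long non-coding RNA Lockd next to a cyclin inhibitor (-4.52 ± 0.92, adjusted p = 0.044). Ccnb2 (-3.46 ± 0.70, adjusted p = 0.044) and the centromere gene Cenpp were also among the 10, as were 3 probes without a gene name. Upwards, the pheromone receptor gene Vmn2r5 led (5.06 ± 0.78, adjusted p = 0.0032), with its probe above background on 4 M+Fc-GLP-1 and 1 C+Fc-GLP-1 array after PH and on none before. Cela1, an elastase of the exocrine pancreas, differed by 2.11 after PH and -1.86 before (3.97 ± 0.52, adjusted p = 4.4e-04). The lipid carrier Fabp5 was lower at both times, by -1.72 after PH and -4.35 before (2.63 ± 0.53, adjusted p = 0.044). Gbp5, an interferon-induced GTPase, was higher after PH (3.29 ± 0.37, adjusted p = 4.8e-07) and did not pass before (0.40), but its other probe differed by -0.27. This count ranged from 5 when C+Fc-GLP-1 replicate 2 of the later time was left out to 41 when M+Fc-GLP-1 replicate 4 was, and was 29 without the pair that stood apart.

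Whether the drug altered the diet difference after PH was tested by an interaction term, for which no gene passed the threshold in limma (0%), with 1835 genes at an unadjusted p under 0.05 and a smallest adjusted p of 0.072. The diets of mice without drug differed in 2558 genes after PH, but lay on different slides, so there diet and slide cannot be told apart. Fitted on the arrays of the comparison alone the count was 1, with the authors' normalized values 1 and after normexp and quantile normalization 5. Leaving out C after PH replicate 1 gave 14 genes, C after PH replicate 2 gave 4, M+Fc-GLP-1 replicate 3 gave 3 and MCD after PH replicate 4 gave 2.

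Fetal and ductular genes held 4 rises and 1 fall of 24 tested. The median was 0.27 and rested on single arrays, being 0.84 without C+Fc-GLP-1 replicate 1, -0.36 without M+Fc-GLP-1 replicate 4 and 0.01 without the pair that stood apart. Afp, alpha-fetoprotein, read 1.71, 2.67, 2.12 and 1.47 in M+Fc-GLP-1 and -0.91, -1.32, -1.08 and -1.12 in C+Fc-GLP-1 mice (3.1 ± 0.34, adjusted p = 4.0e-07). H19, Ly6d (4.25 ± 0.82, adjusted p = 6.5e-04) and the proteoglycan Gpc3 (2.38) rose with it, while the trefoil factor Tff3 fell (-5.17 ± 0.49, adjusted p = 4.3e-08). Among the remaining large changes were rises of Tceal5 (5.40, adjusted p = 1.1e-05) and Bex2 (5.09, adjusted p = 1.1e-06), each above background on 2 of 4 chow arrays, and falls of the melanin enzyme Dct (-5.31, adjusted p = 1.8e-07), the antisense RNA Hnf4aos (-4.60, adjusted p = 6.5e-05) and the developmental factor Pax2 (-4.50, adjusted p = 0.0042). Meltf, a transferrin-like protein, was at least 15.6-fold higher (adjusted p = 2.7e-05), and Serpina12 at least 10.4-fold (adjusted p = 6.5e-05), Pnpla5 at least 6.56-fold (adjusted p = 4.0e-05) and Lrit2 at least 5.10-fold lower (adjusted p = 3.5e-04), in each case against a group in which no array measured the probe.

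Of 22 immediate early genes Myc (1.53, adjusted p = 0.027) was higher and Fos (-2.88 ± 0.63, adjusted p = 0.0025) and Dusp1 (-1.04, adjusted p = 0.048) were lower, median -0.30, beside 6.2% of all genes higher and 6.62% lower. The call on Myc was lost without C+Fc-GLP-1 replicate 2 or 3 or M+Fc-GLP-1 replicate 1, 3 or 4 (adjusted p up to 0.093), and that on Dusp1 without C+Fc-GLP-1 replicate 2, 3 or 4 or M+Fc-GLP-1 replicate 2, 3 or 4 (adjusted p up to 0.18). Markers of other cells and tissues showed few calls. Of 25 endothelial genes Gata4 (-1.11, adjusted p = 0.0062) and Clec4g (-1.08, adjusted p = 0.028) were lower, median -0.23, beside 6.62% of all genes lower. The call on Clec4g was lost without C+Fc-GLP-1 replicate 3 or 4 or M+Fc-GLP-1 replicate 2 or 4 (adjusted p up to 0.098). None of 7 mesothelial genes passed, Gpm6a and Msln having the smallest p (1.20 (adjusted p = 0.24) and 1.10 (adjusted p = 0.47)), nor did any of 3 skeletal muscle genes, Tnnc2 (0.38, adjusted p = 0.55) and Tnni2 (-0.19, adjusted p = 0.78) among them. Of 10 platelet genes Itgb3 was higher (1.26, adjusted p = 0.0075), and of 7 red cell genes Alas2 was lower (-1.20, adjusted p = 0.048) and Ahsp at least 2.62-fold lower (adjusted p = 0.042). The call on Alas2 was lost without C+Fc-GLP-1 replicate 2, 3 or 4 or M+Fc-GLP-1 replicate 1, 2 or 4 (adjusted p up to 0.17), and that on Ahsp without C+Fc-GLP-1 replicate 2, 3 or 4 or M+Fc-GLP-1 replicate 1, 2 or 4 (adjusted p up to 0.13). Of 5 adipose genes the carbonic anhydrase Car3 was lower (-2.15, adjusted p = 0.016), a call lost without M+Fc-GLP-1 replicate 4 (adjusted p up to 0.080), and the other 5 of the list were too dim to test. Of 6 pancreatic genes Cela1 was higher (2.11 ± 0.37, adjusted p = 2.0e-04), and of 3 intestinal genes Lgals4 (2.32 ± 0.44, adjusted p = 5.4e-04) and Fabp2 (1.09, adjusted p = 0.021) were higher, the call on Fabp2 being lost without C+Fc-GLP-1 replicate 1 or M+Fc-GLP-1 replicate 1 or 2 (adjusted p up to 0.10).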

How the data were processed

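Liver RNA of 32 samples, 4 in each of 8 groups, was measured on 1-colour arrays of 62976 spots. The authors deposited the intensity values of each array as written by Feature Extraction 10.7.3.1, background corrected and detrended within the array in linear units per the file headers, and a table of normalized log2 values, made with limma per the study's methods, which served as an alternative here. Processed signals were taken to log2, and each array was centred by subtracting its own 75th percentile over 59305 spots that are not controls. Of 55681 probes, 426 with all spots flagged as outliers on at least 1 array were left out, among them 32 genes of the lists. Probes were named by RefSeq accession where one matched (27656 probes, 1711 renamed), and otherwise by the deposited name. Probes entered the fit if any of the 8 groups had them well above background in all its 4 arrays, which left 28932 probes, and each of 21071 genes was represented by its brightest probe.

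The 8 groups shared one limma fit (version 3.58.1, R 4.3.3). P-values were adjusted by Benjamini-Hochberg over all genes tested, with 0.05 as the threshold. The 49 gene lists hold 1200 genes, of which 1028 were tested, 121 were too dim and 19 had no matched probe, and 5 were matched by another symbol. Lists, members and comparison were chosen with earlier results of these data known, and lists are described by counts and medians without a test. Genes named are the 10 largest rises and falls with groups that do not overlap, the 3 largest bounds in each direction, 18 genes named in the study, Glp1r included, the called genes of each list with the smallest p, up to 4 (2 without calls), and the largest time interactions, up to 3 in each direction. Other members given with a difference alone, and 32 genes more, were chosen after their values were seen. A fold bound sets the bright group's mean against, per array of the dim group, the higher of the lowest signal among probes well above background and the probe's own.

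On simulated data with 200 of 21071 genes changed, 21% of changes of 1 and 82% of changes of 2 on the log2 scale were recovered, with 4 calls among unchanged genes and 0 in an unchanged comparison. The simulation changed a smaller share of genes than the 12.8% called in the data. Its errors were independent between genes, without deviations shared across an array, so these rates cannot be carried over to the data. Promoters, 250 bases before to 50 after the start, are those of RefSeq on GRCm38.p6, 32851 for 27025 genes. The alternatives were normexp with an offset of 50 and quantile normalization, centring on the median, the authors' values, all probes without regard to background, averaging the probes of each gene, fitting the compared arrays alone, the replicate number as a block and each array left out. Leaving out both arrays that stood apart was added after seeing the data. Some genes that these rules named are not reported here. The study's other tissues, assays and diets were not analysed here.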

Additional observations from a re-analysis of the deposited data

Results flagged for a closer look

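Among 430 sets of 4 arrays, the 2 groups after PH for each of the genes chosen to be named, 19 had a sample whose gap to its nearest neighbour was above Dixon's critical value for 4 samples; chance flags about 1 in 20 groups. In C+Fc-GLP-1 replicate 1 these were Hsd3b5 at 4.64 (others 6.58 to 6.94), Slc19a1 at 1.35 (others 1.74 to 1.78), Cyp2c55 at -0.046 (others 1.00 to 1.20), Otc at 5.17 (others 6.41 to 6.60), Igf1 at 6.08 (others 6.93 to 7.02) and Ifi27l2a at 5.84 (others 4.46 to 4.57). In C+Fc-GLP-1 replicate 2 these were Tff3 at 2.46 (others 3.33 to 3.43) and Per1 at 3.1 (others 0.83 to 1.18). In C+Fc-GLP-1 replicate 4 these were Serpina12 at -0.86 (others -1.21 to -1.17) and Cd36 at -1.27 (others 0.79 to 1.08). In M+Fc-GLP-1 replicate 2 these were Adm2 at 0.39 (others -1.75 to -1.48), Gzmb at -3.0 (others -4.16 to -4.01) and C6 at 1.47 (others 1.70 to 1.74). In M+Fc-GLP-1 replicate 3 this was Mfsd2a at 6.56 (others 7.15 to 7.19). In M+Fc-GLP-1 replicate 4 these were Ciart at -1.20 (others 0.76 to 0.99), Ly6d at 5.68 (others 5.09 to 5.14), Cd22 at -2.59 (others -2.30 to -2.27), Cd3g at -3.77 (others -2.65 to -2.48) and Socs2 at 2.03 (others 2.96 to 3.11).

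The diet difference under Fc-GLP-1 changed with time in 20 genes by the interaction test. Of the genes named, the change in log2 difference, after minus before PH, was -5.32 in Ccnb1, -3.46 in Ccnb2, -5.08 in Cdc20, 3.97 in Cela1, 2.63 in Fabp5, 2.89 in Gbp5, -4.52 in Lockd and 5.06 in Vmn2r5. Each diet contrast lay within 1 slide, and the slides of the 2 times differed.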

How the results depend on the processing

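Of 182 called genes chosen to be named, a few of which are not reported here, none changed direction in the 8 fits with 1 array left out or the 8 other alternatives, 142 kept the call in all of the former and 132 in all of the latter. Of the 2702 genes that differed after PH, the counts were 1865 with normexp and quantile normalization, 2278 with centring on the median, 1786 with the authors' values, 2066 without the filter on dim probes, 2874 with probe means, 1935 with the compared arrays alone, 2024 without both arrays that stood apart and 2005 to 2451 with 1 array left out. Before PH, where the count was 2183, these were 1426, 2514, 1247, 1587, 2332, 1370, 2231 and 1534 to 2281; centring on the median divided the 2514 into 615 higher and 1899 lower, against 1127 and 1056. For the time interaction, with 20 genes, they were 5, 12, 9, 7, 18, 4, 29 and 5 to 41. For the drug interaction, with 0 genes, normexp gave 5, the authors' values 1, the compared arrays alone 1 and 1 array left out 0 to 14. The cause of these shifts was not tested. Centring on the median moved the median difference of all genes from -0.01 to -0.06 after PH, from 0.04 to -0.22 before PH, from -0.03 to 0.18 for the time interaction and from 0.02 to -0.15 for the drug interaction.

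Same-numbered samples of the 2 groups did not deviate together, with correlations of -0.17, 0.16, 0.09 and -0.18, so the numbers do not pair them; the fit with the replicate block gave 2719 genes after PH, 2236 before, 19 for the time and 0 for the drug interaction. The slide as a random block could not be fitted, since each of the 8 groups lay on 1 of 5 slides. With 1 array left out, differences that had not passed the threshold changed sign, running from -0.13 to 0.77 in Tnf, from -0.32 to 0.035 in Tgfb1, from -0.61 to 0.069 in Fap, from -0.37 to 0.29 in Acta2, from -0.36 to 0.054 in Tnni2, from -0.078 to 0.31 in Atf4 and from -0.31 to 0.15 in Hspa5. That of Atf4 was also -0.12 with normexp, -0.050 with the authors' values, -0.099 with probe means and -0.14 without both arrays that stood apart. None of these genes passed in the fits named. Signal over background limits 42 calls higher and 60 lower to bounds.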
